A study of Mus musculus with 2 samples.

Results

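Parp9, Parp10, Parp12, Parp14 and Dtx3l are 5 genes of ADP-ribosylation and ubiquitin signalling that were followed through the endothelial cells (ECs) of a mouse tumour. They were chosen by name, as 5 of the 17139 genes listed in both expression tables, and all 5 passed the minimum of 5 CPM in either library and entered every comparison. A UMI is the molecular tag that marks 1 captured mRNA molecule, and CPM is a gene's UMIs summed over a set of cells and given per 1000000 UMIs of those cells.

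The study sequenced single CD31+ ECs sorted from Lewis lung carcinoma (LLC) tumours, which are grown from a carcinoma line of the same mouse strain. One library came from a tumour injected with PBS, and the other from a tumour injected with cGAMP, the cyclic dinucleotide that cells make on sensing DNA in the cytosol and that activates STING. The study asked what STING activation does to tumour ECs. Both groups are c57bl/6, labelled Adult, and the study's methods give male mice of 8 to 9 weeks at implantation, with no transgene or deletion in either. cGAMP was given at 14 µg in 70 µl, and the tumours were sampled 24 h after the injection, although another legend of the study gives 6 h for the same libraries. Each library is 1 mouse, so that the condition cannot be told apart from the mouse or the library, no test was made, and every interval below covers counting error only.

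PARP proteins take NAD+ apart and attach its ADP-ribose to proteins, either as single units or as chains. Most members of the family that respond to interferon attach single units, and several of them limit the growth of viruses. Type I interferon signals through the Janus kinases to transcription factors that switch on a broad set of interferon-stimulated genes, and these 5 genes are known to belong to that set. PARP10, PARP12 and PARP14 are mono-ADP-ribosyltransferases. PARP14 also carries macrodomains, which bind ADP-ribose, and PARP12 carries zinc fingers that bind RNA. PARP9 carries macrodomains as well, and works as the partner of DTX3L, an E3 ubiquitin ligase of the deltex family.

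Parp14, Dtx3l and Parp9 lie side by side on chromosome 16, in a stretch of 139732 bases of GRCm38 (GENCODE vM21). Parp14 runs from 35832874 to 35871544 on the minus strand, and Dtx3l starts 54966 bases further along and runs from 35926511 to 35939151, also on the minus strand. Parp9 runs from 35938470 to 35972605 on the plus strand. Parp9 and Dtx3l therefore point away from each other and overlap by 682 bases at their 5′ ends. Parp10 lies on chromosome 15, from 76231174 to 76243441 on the minus strand, and Parp12 on chromosome 6, from 39086410 to 39118349 on the minus strand.

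The kit tags the 3′ ends of transcripts, which decides which overlaps bear on the counts. The 3′ end of Parp10 overlaps Plec, a gene of the same strand, by 1401 bases, so the reads of Parp10 may have been divided or dropped and its level is uncertain. Plec stood at 365 CPM in the PBS library and 259 CPM in the cGAMP library, and thus moved in the opposite direction to Parp10. The 3′ part of Parp9 is overlapped by 5854 bases of the antisense gene Gm15564, which stood at 0.174 CPM in the PBS library and was listed at 0 in the cGAMP library, where a count of 0, taken as a floor of 3 UMIs, allows up to 0.0473 CPM. The use of strand in the counting is not given in the sources used here.

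RefSeq promoter windows, from 250 bases before to 50 after the start, were at hand for Dtx3l and Parp12. The parts outside exons are shown because the first lies upstream of Dtx3l and inside Parp9, and the second is the promoter side of the member that follows the others least closely. Both are 5′ to 3′ on the minus strand of GRCm38.p6, at chr16:35939207-35939277 for Dtx3l, in the first intron of Parp9, and at chr6:39118350-39118599 for Parp12.
Dtx3l: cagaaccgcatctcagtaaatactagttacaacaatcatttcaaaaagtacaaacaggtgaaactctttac
Parp12: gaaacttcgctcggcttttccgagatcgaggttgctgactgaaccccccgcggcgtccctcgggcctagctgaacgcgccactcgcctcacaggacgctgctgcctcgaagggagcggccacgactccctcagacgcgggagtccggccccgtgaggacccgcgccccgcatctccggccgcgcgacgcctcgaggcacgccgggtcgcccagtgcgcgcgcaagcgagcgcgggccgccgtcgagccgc
The Parp12 stretch is rich in G and C, at 73.6%, and the Dtx3l stretch is poor in them, at 33.8%. Both windows were searched on both strands for GAAANNGAAA, the core of the interferon-stimulated response element, and TTCNNNGAA, a motif of other interferon-responsive promoters. Neither motif occurs in either window, which says only that these letters are not in it, and nothing is set in capitals. GAAANNGAAA was found in 3.44% and TTCNNNGAA in 8.30% of all 32851 windows of the same length.

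The PBS library held 2517 ECs with 92081146 UMIs, and the cGAMP library 1340 ECs with 63366746. The cells of the cGAMP library were deeper, at a median of 41177.5 UMIs against 29780, and 1 cell barcode occurred in both libraries. Pecam1, the endothelial marker CD31, had a UMI in 98.3% and 97.4% of cells thinned to 5000 UMIs, and the 9 endothelial markers summed to 5733 and 6749 CPM. Leucocyte markers summed to 15.6 CPM in the PBS library and 44.2 CPM in the cGAMP library, with none of the 8 listed markers at 0. Pericyte and fibroblast markers summed to 17.3 and 10.6 CPM, and lymphatic markers to 12.2 and 44.6 CPM. Of the latter Lyve1 made up 10.2 and 43.6 CPM, and its part in the results below was not tested.

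All 5 genes had a higher level after cGAMP, by 1.40-fold to 1.71-fold. Parp9 had the largest ratio and Parp14, the gene with the most UMIs, the smallest. The increase was moderate, since none of the 5 reached 2-fold, which 1.82% of the 9509 genes with at least 5 CPM did. Over all these genes 40.4% were higher in the cGAMP library, with a median log2 ratio of -0.075, whereas the median of the 5 was 0.56.

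Among the transferases, Parp14 stood at 73.0 CPM (71.3 to 74.8, an exact Poisson 95% interval) in PBS-treated and at 102 CPM (99.7 to 105) in cGAMP-treated ECs. Its log2 ratio of cGAMP over PBS was 0.49 (0.44 to 0.54, an exact conditional binomial 95% interval). Parp10 had 12.5 CPM (11.8 to 13.3) without cGAMP and 18.6 CPM (17.6 to 19.7) with it, and Parp12 had 23.9 CPM (22.9 to 24.9) and 35.3 CPM (33.8 to 36.8). The matching log2 ratios were 0.57 (0.46 to 0.69) for Parp10 and 0.56 (0.48 to 0.65) for Parp12. The ratios of these 3 transferases lay so close together that the intervals of Parp10 and Parp12 took in most of each other. Between 4.65% and 6.45% of the 9509 genes had a larger ratio than these.

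The partners Parp9 and Dtx3l started from nearly the same level and ended apart. Parp9 had 29.6 CPM (28.5 to 30.8) in PBS-treated and 50.7 CPM (48.9 to 52.5) in cGAMP-treated ECs, and Dtx3l had 29.0 CPM (27.9 to 30.1) and 41.8 CPM (40.2 to 43.4). The log2 ratio was 0.77 (0.70 to 0.85) for Parp9 and 0.53 (0.45 to 0.60) for Dtx3l. The intervals of the 2 ratios did not overlap, although Parp9 and Dtx3l are transcribed from opposite strands of one shared start region. The gap between them was smaller in thinned cells, where Parp9 had a log2 ratio of 0.50 (0.28 to 0.71) from 419 and 321 UMIs and Dtx3l one of 0.47 (0.24 to 0.69).

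**Figure D1:**
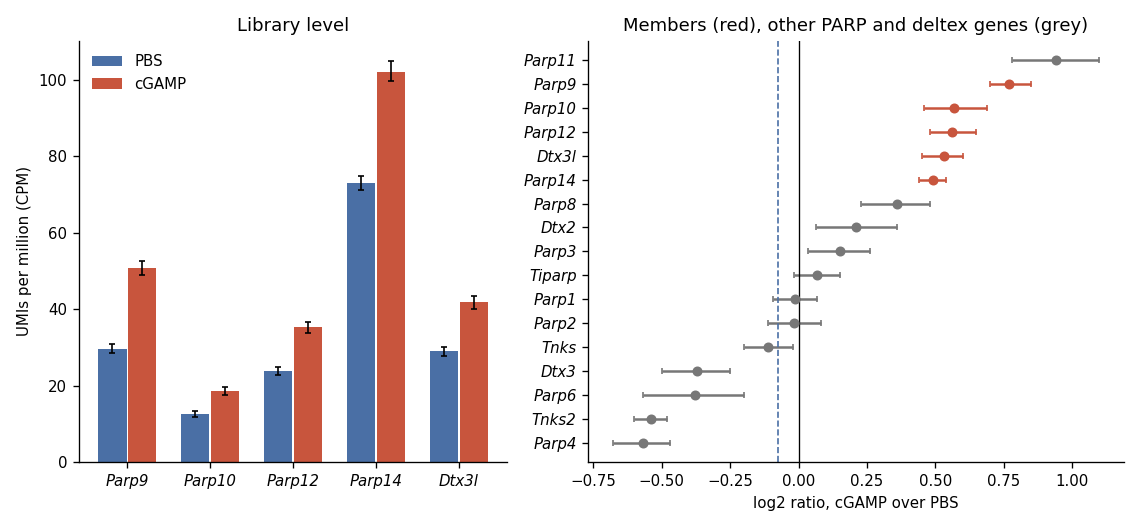
Left, level of each gene in CPM on a linear axis from 0, with bars for the PBS (blue) and cGAMP (red) library and exact Poisson 95% intervals; right, log2 ratio of cGAMP over PBS for the 5 genes (red) and the other PARP and deltex genes with at least 5 CPM (grey), with exact conditional binomial 95% intervals and a dashed line at the median of all genes. The 5 red points sit between 0.49 and 0.77, and Parp11 at 0.94 is the only grey point above them.

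Leucocyte markers were higher in the cGAMP library, as the 5 genes were. In the 1604 and 413 cells without a UMI of any leucocyte marker, the log2 ratios were 0.75 for Parp9, 0.65 for Parp10, 0.55 for Parp12, 0.47 for Parp14 and 0.59 for Dtx3l. They were thus about as large as in all cells. Mitochondrial UMIs also differed, at a median of 4.49% per PBS-treated and 2.87% per cGAMP-treated cell. Among the cells with at most 5% of them the ratios lay between 0.47 for Parp14 and 0.77 for Parp9.

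To see where in the endothelium these genes were active, the cells of both libraries were clustered together without the 5 genes and without variable genes that differed 2-fold between the libraries. The 8 states found are called here by their 2 leading genes. Ackr1/Selp is stalk-like, Gja4/Nts arterial, Gal/Chga and Ankrd1/Pgf tip-like, and Hist1h1b/Hist1h2ap and Cenpf/Ube2c proliferative by the markers. Ramp3/Esm1 raised no marker of any class by 2-fold and stayed unnamed, although 2 tip-like markers were among its 10 leading genes. Igfbp5/Ctsh also stayed unnamed: it raised 10 of 11 stalk-like markers, against 7 of 11 in Ackr1/Selp, but the marker among its 10 leading genes, Mgp, was arterial. The states ranged from 46 to 573 PBS-treated and from 51 to 354 cGAMP-treated cells.

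In PBS-treated ECs, the 5 genes were highest in the arterial Gja4/Nts state or in Gal/Chga. Rsad2, an interferon-stimulated gene, was among the 10 leading genes of the latter. Parp9 ranged from 21.7 CPM in Hist1h1b/Hist1h2ap to 39.3 CPM in Gja4/Nts, and Dtx3l from 20.2 CPM in Ankrd1/Pgf to 40.2 CPM in Gja4/Nts. Parp12 ranged from 11.7 CPM in Igfbp5/Ctsh, where it rested on 12 UMIs, to 30.6 CPM in Gja4/Nts. The arterial state was therefore the highest for the partner pair and for Parp12. Parp14 ranged from 48.9 CPM in Hist1h1b/Hist1h2ap to 111 CPM (105 to 116) in Gal/Chga. Parp10 ranged from 8.14 to 17.2 CPM between the same states. Parp14 in the Gal/Chga state of the untreated tumour thus exceeded its level of 102 CPM over the whole cGAMP library, and this was the single case among the 5 genes and 8 states. It was not seen when the interferon lists were also left out of the clustering, where the PBS level in Gal/Chga was 99.1 CPM.

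In cGAMP-treated ECs the order of the states changed. Parp9 was highest in Ackr1/Selp, at 72.1 CPM (68.0 to 76.3), and lowest in Cenpf/Ube2c, at 31.7 CPM (26.6 to 37.3). Dtx3l was likewise highest in Ackr1/Selp, at 56.0 CPM, and lowest in Ramp3/Esm1, at 28.3 CPM. The stalk-like ECs, which carry the adhesion molecule P-selectin, had overtaken the arterial ECs for the partner pair. Parp14 and Parp10 remained highest in Gal/Chga, at 146 and 25.2 CPM, and lowest in Cenpf/Ube2c, at 71.8 and 11.9 CPM. Parp12 was highest in Ankrd1/Pgf, a tip-like state with genes of low oxygen among its leaders, at 49.9 CPM, and lowest in Hist1h1b/Hist1h2ap, at 29.3 CPM. In the cells without a UMI of a leucocyte marker, Parp12 stood at 27.4 CPM in Ankrd1/Pgf. It was higher in Gja4/Nts, at 41.4 CPM, Ackr1/Selp, at 39.9 CPM, and Gal/Chga, at 37.8 CPM. Parp14 in these cells stood at 103 CPM in Gal/Chga and 151 CPM in Ackr1/Selp, and Parp10 at 17.6 and 22.9 CPM. Neither was thus highest in Gal/Chga there. With the interferon lists also left out of the clustering, Parp14 was highest in Ackr1/Selp, at 138 CPM. Parp10 was then highest in Ankrd1/Pgf, at 24.8 CPM.

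Most neighbouring states could not be told apart. Of the 7 pairs of neighbours in the order of the states, between 5 and 7 had intervals of their ratio that reached 0, for each gene and library. The highest state exceeded the lowest by 1.81-fold for Parp9, 2.11-fold for Parp10, 2.62-fold for Parp12, 2.26-fold for Parp14 and 1.99-fold for Dtx3l in the PBS library. In the cGAMP library these folds were 2.28, 2.12, 1.70, 2.03 and 1.98 in the same order. The highest and lowest states differed beyond counting error for each gene, although the states at the ends were picked for being extreme.

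**Figure D2:**
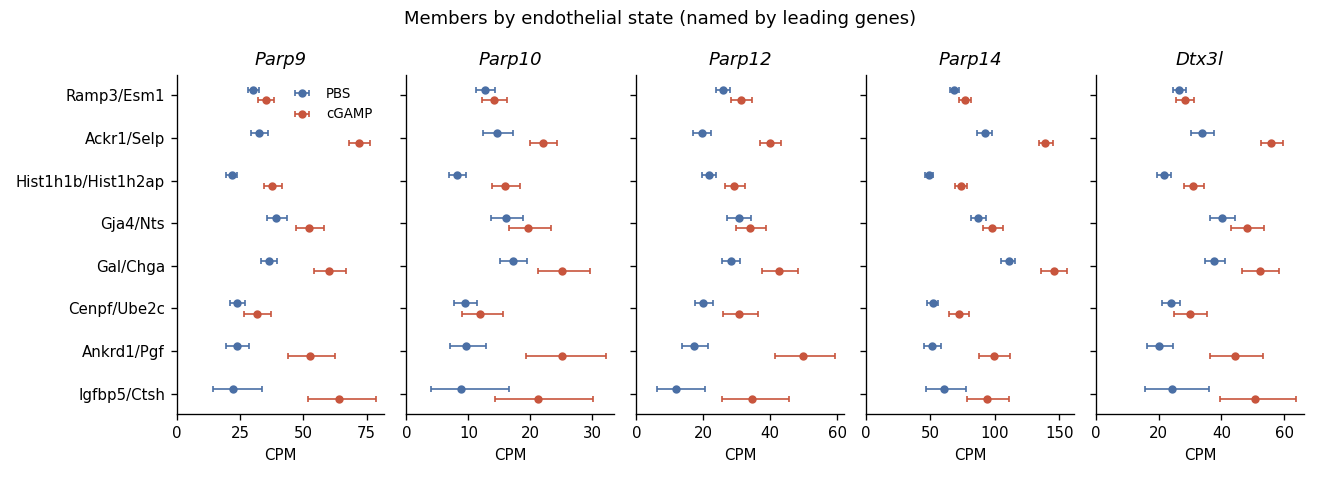
Level of each gene in CPM on linear axes from 0 (each panel has its own range) in the 8 endothelial states, named by their leading genes, for the PBS (blue) and cGAMP (red) library, with exact Poisson 95% intervals. The red point lies to the right of the blue one in all 40 pairs, and the highest state differs between the genes.

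Within the states, the cGAMP level was higher in 40 of 40 pairs of gene and state. Of all genes with at least 5 CPM, 43.8% were higher in Ramp3/Esm1, 39.9% in Ackr1/Selp, 40.7% in Hist1h1b/Hist1h2ap, 42.8% in Gja4/Nts, 44.6% in Gal/Chga, 40.0% in Cenpf/Ube2c, 51.2% in Ankrd1/Pgf and 44.0% in Igfbp5/Ctsh. The pairs are not independent, since the 8 states of a library share 1 mouse. The interval of the ratio reached 0 for Parp10 in Ramp3/Esm1, Gja4/Nts and Cenpf/Ube2c, for Parp12 in Gja4/Nts and for Dtx3l in Ramp3/Esm1. In the cells without a leucocyte UMI, which are far fewer per state, 38 of 40 pairs were higher. Of them, 19 had an interval above 0, against 35 in all cells. The share of all genes that were higher was not taken in these cells. That of all genes with an interval above 0 was taken in neither set of cells. The log2 ratio there was -0.051 (-0.29 to 0.19) for Parp14 in Ramp3/Esm1 and -0.24, with an interval that took in 0, for Parp10 in Cenpf/Ube2c, and 0.006 (-0.25 to 0.26) for Parp14 in Gal/Chga.

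The size of the difference varied widely between the states. The median log2 ratio of the 5 genes was 0.16 in Ramp3/Esm1 and 0.26 in Gja4/Nts. It was 0.40 in Cenpf/Ube2c, 0.55 in Gal/Chga, 0.59 in Hist1h1b/Hist1h2ap and 0.72 in Ackr1/Selp. In Ankrd1/Pgf and Igfbp5/Ctsh it reached 1.15 and 1.27. The medians of all genes stayed between -0.11 and 0.013 over the states. The arterial ECs, highest for 3 of the genes without cGAMP, were thus among those with the smallest difference in all cells. The PBS level is the denominator of the ratio, so level and ratio are not independent. In cells without a leucocyte UMI, Parp9, Parp10 and Parp14 had log2 ratios of 0.67, 0.43 and 0.39 in Gja4/Nts. These were above their 0.35, 0.19 and 0.006 in Gal/Chga. Parp12 and Dtx3l had smaller ones in Gja4/Nts, at 0.35 and 0.12 against 0.58 and 0.33.

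Parp9 is shown for the contrast between Ramp3/Esm1 and Ackr1/Selp, chosen after the values had been seen. In Ramp3/Esm1 it had 30.3 CPM (28.1 to 32.6) and 35.2 CPM (32.1 to 38.5), with a log2 ratio of 0.22 (0.046 to 0.39). In Ackr1/Selp it had 32.6 CPM (29.2 to 36.2) and 72.1 CPM, with a log2 ratio of 1.15 (0.97 to 1.33). The 2 states were close to each other without cGAMP and far apart with it. A set of 34 other interferon-stimulated genes, called the reference below, had a median log2 ratio of 0.75 in Ramp3/Esm1 and 1.71 in Ackr1/Selp, so that its ratio was also smaller in the former.

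In Ankrd1/Pgf, Parp12 had 17.2 CPM (13.7 to 21.4) and 49.9 CPM (41.5 to 59.4), with a log2 ratio of 1.53 (1.12 to 1.96). Leucocyte markers in this state went from 34.2 to 317 CPM, more than in any other state. In its 75 and 15 cells without a leucocyte UMI, the log2 ratio of Parp12 was 1.11 (0.029 to 2.11), and those of the other 4 genes lay between 0.71 for Parp14 and 1.31 for Parp10. The ratios in Igfbp5/Ctsh rest on few UMIs, such as 9 and 30 of Parp10, and its interval ran from 0.16 to 2.53. There, leucocyte markers stood at 15.6 and 37.4 CPM.

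A finer clustering, at a resolution of 0.8 instead of 0.5, set apart a small group of cells in which all 5 genes were far above the rest in both libraries. Its leading genes were Rsad2, Cxcl10 and Ifit2, which encode an antiviral enzyme, a chemokine for T cells and an antiviral RNA-binding protein, so interferon-stimulated genes other than the 5 defined it. It held 42 PBS-treated and 23 cGAMP-treated ECs, or 1.67% and 1.72% of the libraries. Of these, 34 and 23 came from the Gal/Chga state. In the other 10 finer states Parp14 lay between 44.5 and 94.8 CPM in the PBS library and between 67.6 and 139.7 CPM in the cGAMP library. This group was singled out after its values had been seen, and its levels are a description.

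Parp14 stood at 372 CPM (341 to 405) in the PBS-treated and 338 CPM (299.9 to 379) in the cGAMP-treated cells of the Rsad2/Cxcl10 group. Parp9 stood at 129 CPM (111 to 149) and 130.0 CPM (107 to 157). Dtx3l stood at 137 CPM (118 to 157) and 128 CPM (105 to 154). For these 3 neighbours on chromosome 16, the cells of the untreated tumour had levels as high as those of the treated one, within counting error. Parp12 stood at 103 CPM (87.4 to 122) and 98.1 CPM (78.1 to 122). Parp10 stood at 65.9 CPM (53.2 to 80.7) and 47.3 CPM (33.8 to 64.4).

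The log2 ratio of cGAMP over PBS in this group was 0.011 (-0.34 to 0.36) for Parp9, -0.48 (-1.05 to 0.070) for Parp10, -0.077 (-0.48 to 0.32) for Parp12, -0.14 (-0.35 to 0.072) for Parp14 and -0.10 (-0.45 to 0.25) for Dtx3l. No difference between the libraries was detectable here at this depth, and the intervals do not show that the levels were equal. The summed reference was also alike, at 19636 and 20489 CPM, against 2673 and 7121 CPM in the whole libraries. Rsad2 and Ifit2, leading genes of the group, belong to the reference, so its level here is no separate observation. Leucocyte markers in the group stood at 21.3 and 43.7 CPM, close to those of the whole libraries.

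These few cells held 6.67% of the Parp9, 8.07% of the Parp10, 6.64% of the Parp12, 7.81% of the Parp14 and 7.23% of the Dtx3l UMIs of the PBS library. In the cGAMP library they held between 3.39% of Parp10 and 4.42% of Parp14. They also accounted for part of the high levels in Gal/Chga. Without them, Parp14 in the Gal/Chga state stood at 87.9 CPM in PBS-treated and 113 CPM in cGAMP-treated cells. That PBS level was no longer above the whole cGAMP library. Over the whole libraries without the group, the log2 ratios were 0.82 for Parp9, 0.64 for Parp10, 0.60 for Parp12, 0.53 for Parp14 and 0.57 for Dtx3l.

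**Figure D3:**
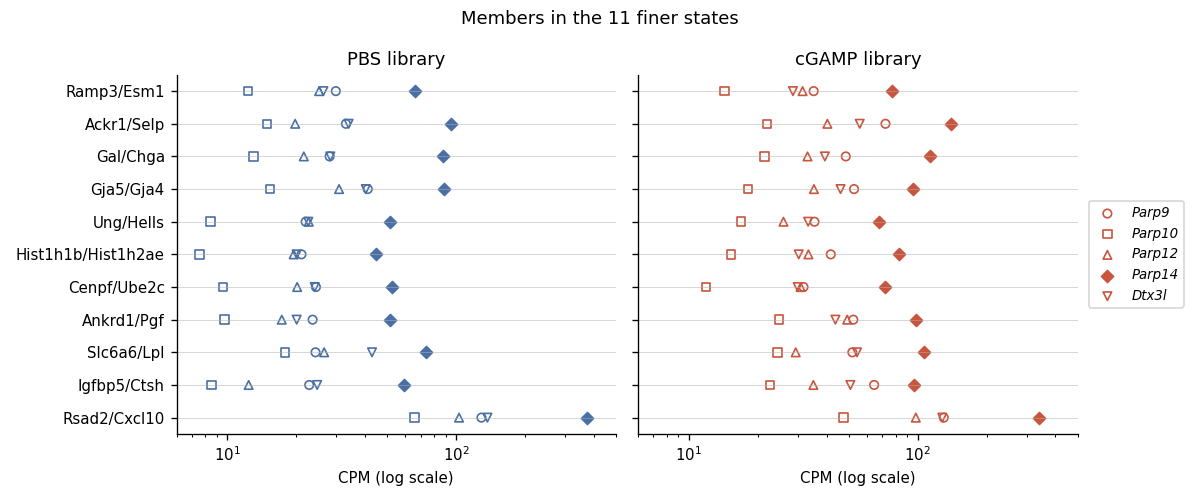
Level of the 5 genes in CPM on log axes in the 11 finer states, named by their leading genes, for the PBS library (left, blue) and the cGAMP library (right, red), with a marker shape for each gene and Parp14 filled. In both panels the Rsad2/Cxcl10 group at the bottom lies furthest to the right for all 5 genes.

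The levels also followed the interferon response from cell to cell. Cells thinned to 5000 UMIs were ordered by their UMIs of the reference and split into 4 groups of equal size within each library, with 70 PBS-treated and 13 cGAMP-treated cells of fewer UMIs left out. Parp14 had 38.4 CPM (35.9 to 40.9) in the lowest and 144 CPM (139 to 149) in the highest group of the PBS library, which is 3.75-fold. In the cGAMP library it had 57.8 CPM (54.0 to 61.7) and 175 CPM (169 to 181), which is 3.03-fold. For the other 4 genes the highest group was 2.76-fold to 3.16-fold above the lowest in the PBS library and 2.72-fold to 3.55-fold in the cGAMP library. These differences between cells of 1 library were larger than the 1.40-fold to 1.71-fold between the libraries. The measures are unlike, since the former compare the ends of an order of cells and the latter all cells.

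These groups did not line up between the libraries, because the reference had moved upwards. Of the PBS-treated cells 86.3% had fewer than 20 reference UMIs per 5000, against 24.1% of the cGAMP-treated cells, and 40 or more were held by 4.74% and 33.0%. Cells were therefore also placed in 7 bins of equal reference level in both libraries, a choice made after those groups had been seen. Bst2, a membrane protein that tethers virus particles, made up 26.3% and 32.0% of the reference UMIs.

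At an equal reference level, the cells of the PBS library had the higher level of these genes in most bins. At 20 to 29 reference UMIs, with 163 and 339 cells, Parp14 stood at 105 CPM (97.1 to 113) in PBS-treated and 71.3 CPM (67.1 to 75.6) in cGAMP-treated cells, a log2 ratio of -0.56 (-0.70 to -0.42). At 40 to 59, with 50 and 272 cells, it stood at 241 CPM (219 to 265) and 124 CPM (118 to 130.2), a log2 ratio of -0.96 (-1.11 to -0.80). The direction was the reverse of that between the whole libraries. In the lowest bin, of fewer than 10 reference UMIs and with 34 cGAMP-treated cells, the levels of 43.6 and 40.0 CPM were within counting error of each other. In the highest bin, of 100 or more with 20 and 21 cells, they were 431 and 362 CPM, a log2 ratio of -0.25 (-0.49 to -0.012). Cells of 1 bin had the same median reference of 48.0 UMIs at 40 to 59, but PBS-treated cells had more at 60 to 99, with a median of 79.5 against 69.0, and at 100 or more, with 124.0 against 109.0. The makeup of the bins by state was not compared between the libraries, and its part in these ratios was not tested. The Rsad2/Cxcl10 group, high in the reference, held 42 PBS-treated and 23 cGAMP-treated cells, and the bin of 60 to 99 held 46 and 145.

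The other genes shared this direction to different degrees. At 40 to 59 reference UMIs the log2 ratio was -0.77 (-1.15 to -0.38) for Parp10, -0.58 (-0.86 to -0.29) for Parp12, -0.49 (-0.75 to -0.22) for Dtx3l and -0.40 (-0.64 to -0.15) for Parp9. Parp9 had the smallest reversal, and at 60 to 99 its levels of 105 CPM (91.2 to 121) and 95.1 CPM (88.1 to 103) had overlapping intervals. In all, 31 of the 35 pairs of gene and bin were lower in the cGAMP library and 4 were higher. The 4 were Parp9, Parp10 and Dtx3l in the lowest bin and Parp9 in the highest, each with an interval that took in 0.

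Beside these counts, 54.0%, 56.4%, 54.7%, 52.0%, 53.1%, 50.1% and 45.3% of all genes with at least 5 CPM were lower in the cGAMP library, from the lowest bin to the highest. At 40 to 59 reference UMIs, 5.45% of genes had a lower ratio than Parp14 and 22.8% a lower one than Parp9. The reference genes had a median log2 ratio of 1.28 between the libraries, more than the 5 genes, and equal bins hold that larger difference near 0. With a reference that left out its 3 most abundant genes, 27 of 35 pairs were lower in the cGAMP library. Of them, 15 had an interval below 0, against 22 with the whole reference. The share of all genes that were lower was not taken for this shorter reference. That of all genes with an interval below 0 was taken for neither reference. Under this reference Parp9 was higher in the cGAMP library in 5 of 7 bins. Its log2 ratios there were 0.057 to 0.18, each with an interval that took in 0. Parp9 was lower at 10 to 14 reference UMIs, at -0.36 (-0.57 to -0.16), and at 20 to 29, at -0.29 (-0.53 to -0.041). Parp12 and Dtx3l were lower in the cGAMP library in all 7 under this reference.

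**Figure D4:**
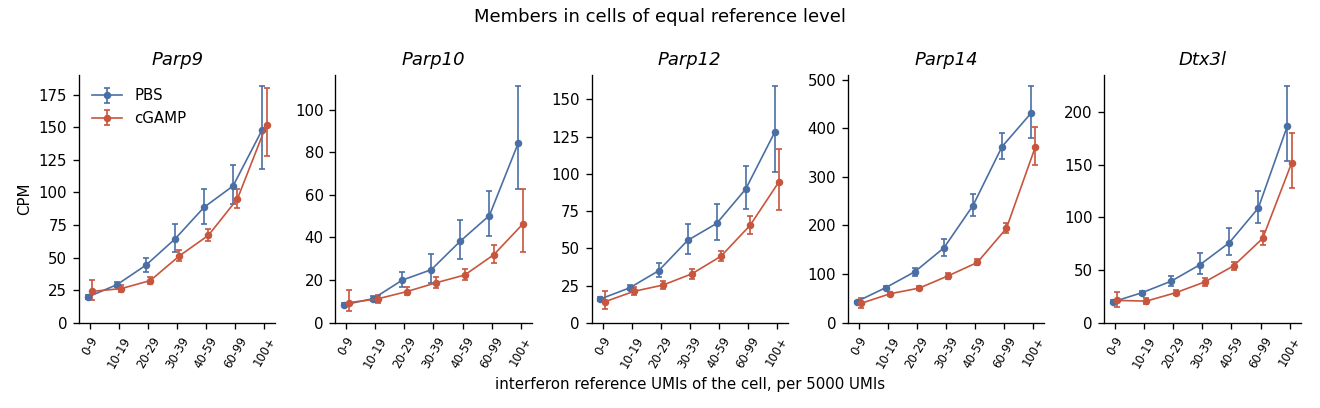
Level of each gene in CPM on linear axes from 0 (each panel has its own range) in cells grouped by their UMIs of the interferon reference per 5000, for the PBS (blue) and cGAMP (red) library, with exact Poisson 95% intervals. Both lines climb in every panel, apart from the first step of Dtx3l in the cGAMP library, and from 20 to 99 reference UMIs the blue points lie above the red ones.

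The 116 PBS-treated cells with 40 or more reference UMIs were 4.74% of cells and held 20.5% of the Parp14, 18.6% of the Parp10, 17.0% of the Dtx3l, 16.6% of the Parp12 and 16.4% of the Parp9 UMIs. In the cGAMP library such cells were 33.0% of cells and held from 49.2% of Parp10 to 55.2% of Dtx3l UMIs. These cells thus held more of the members' UMIs than their number, although most of those of the untreated tumour lay in other ECs.

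The share of ECs with a UMI was also higher after cGAMP for each gene. In cells thinned to 5000 UMIs, 27.3% of the PBS library (25.5 to 29.1, an exact Clopper-Pearson 95% interval) and 37.6% of the cGAMP library (35.0 to 40.3) had a UMI of Parp14. Parp9 was detected in 14.4% (13.0 to 15.8) and 20.9% (18.7 to 23.2), and Dtx3l in 13.4% (12.1 to 14.9) and 18.0% (16.0 to 20.2). For none of the 5 genes did the intervals of the 2 libraries overlap. The share of all genes with intervals that do not overlap was not taken. Parp12 was found in 11.2% (10.0 to 12.6) and 15.7% (13.8 to 17.8), and Parp10 in 6.42% (5.48 to 7.46) and 9.19% (7.69 to 10.9). Without thinning, the shares ran from 31.3% of Parp10 to 71.4% of Parp14 in the PBS library and from 50.2% to 86.9% in the deeper cGAMP library.

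Lyz2, a transcript of myeloid cells that ECs should lack, had a UMI in 2.25% and 5.20% of the same thinned cells, and in 13.5% and 38.4% of unthinned cells. The shares of the 5 genes were above it in each library, least so for Parp10. Cells with none of the 5 genes made up 49.2% (47.2 to 51.2) of PBS-treated and 33.8% (31.2 to 36.4) of cGAMP-treated ECs at this depth. Cells with 2 of them made up 12.3% and 21.0%. At 5000 UMIs most cells therefore showed 1 of these genes or none.

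Single cells gave only a weak picture of the genes moving together. Pearson's r of log-normalized values between pairs of the 5 genes lay between -0.018 and 0.15 over the 2447 and 1327 thinned cells, and between 0.17 and 0.43 at full depth, where the points share the depth of the cell. In sparse counts such values are no finding. Parp14 had the highest r with the reference in both libraries, at 0.32 and 0.25.

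Summed over states, the profiles were closer. Log2(CPM + 1) was taken in the 8 states of both libraries and centred within each library, which gave 16 points that share 2 mice. Among the 6044 other genes with at least 20 CPM, Dtx3l was the one most like Parp9, at r = 0.96, and Parp9 took place 2 for Dtx3l, after Tap2. Tap2 is a subunit of the peptide transporter for MHC class I, and it was also among the 3 genes most like Parp9 and the one most like Parp10, at r = 0.94 and 0.93. Psmb10, a subunit of the immunoproteasome, took place 3 for Parp9, and Sp100, a nuclear body protein, took place 3 for Dtx3l at r = 0.95.

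Parp14 was most like Dhx58, Gbp9 and Igtp, a regulator of RNA sensing and a pair of interferon-inducible GTPases, at r from 0.94 to 0.95. Dtx3l was in place 8 and Parp9 in place 16 of its order. Parp10 was most like Tap2, Trim30a and Stat2, with Parp9 in place 4, Dtx3l in place 6 and Parp14 in place 7. These 4 genes thus lay close together. Parp12 stood apart, with Oasl2, Otud5 and Zbp1 most like it at r from 0.87 to 0.88 and Parp9, Dtx3l and Parp14 in places 125 to 246. Its r with Parp14 was 0.58. The 16 points count alike, and those of Parp12 include Igfbp5/Ctsh in the PBS library, which rests on 12 UMIs. They also include Ankrd1/Pgf in the cGAMP library, at 49.9 CPM in all cells and 27.4 CPM in cells without a leucocyte UMI. How far these points set Parp12 apart was not tested.

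Of 10 other PARP genes with at least 5 CPM, 4 were higher in the cGAMP library, with a median log2 ratio of -0.015, and their share of 40.0% was that of all genes, 40.4%. Parp11, another mono-ADP-ribosyltransferase, had a larger ratio than any of the 5 genes, with 6.05 and 11.6 CPM and a log2 ratio of 0.94 (0.78 to 1.10). It was higher in 8 of 8 states. Parp8 had a log2 ratio of 0.36 (0.23 to 0.48) and Parp3 one of 0.15 (0.034 to 0.26).

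The DNA repair enzymes Parp1 and Parp2, which build ADP-ribose chains, had log2 ratios of -0.013 (-0.094 to 0.067) and -0.016 (-0.11 to 0.081). Tiparp, a target of the aryl hydrocarbon receptor, had one of 0.066 (-0.016 to 0.15). The tankyrase Tnks2 was lower in the cGAMP library, with 81.6 and 56.2 CPM and a log2 ratio of -0.54 (-0.60 to -0.48), while its relative Tnks had a log2 ratio of -0.11. Parp4, the PARP of vault particles, had 26.9 and 18.1 CPM, with a log2 ratio of -0.57 (-0.68 to -0.47). Parp6 had a log2 ratio of -0.38, and Parp16 stayed under 5 CPM in both libraries. Of the other deltex genes, Dtx2 had a log2 ratio of 0.21 and Dtx3 one of -0.37, and Dtx1 and Dtx4 stayed under 5 CPM.

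Of 7 genes with at least 5 CPM that remove or break down ADP-ribose, 4 were higher in the cGAMP library and none by 2-fold, a share of 57.1% with a median log2 ratio of 0.10. Macrod2 had the largest difference, at -0.50 (-0.66 to -0.34), followed by Nudt16 at -0.25 and Adprhl2, which takes single units off serine, at 0.18. Of 9 genes that supply or use NAD+, 4 were higher, a share of 44.4% that is near the 40.4% of all genes, with a median of -0.009. Nampt, the rate-limiting enzyme of the NAD+ salvage pathway, had 34.9 and 46.7 CPM, with a log2 ratio of 0.42 (0.35 to 0.49), and was higher in 8 of 8 states. Nnmt, which uses up the precursor nicotinamide, had a log2 ratio of -0.51 and Nmrk1 one of -0.37.

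Upstream of these genes, 12 of 18 interferon signalling genes were higher in the cGAMP library and 3 by 2-fold or more, with a median log2 ratio of 0.30, beside 40.4% and 1.82% of all genes. Those 3 were Irf7, the factor that amplifies type I interferon, at 2.98, and the feedback inhibitors Socs1 at 1.42 and Usp18 at 1.33. The transcription factors Stat2 and Irf9 had log2 ratios of 0.66 and 0.63, which lie within the range of the 5 genes, and they were named after their values had been seen. Of the 34 reference genes, 32 had at least 5 CPM, all 32 were higher and 19 by 2-fold or more, with a median of 1.28. The largest ratios there were those of Zbp1 at 2.58, Irgm1 at 2.15 and Ifit3 at 1.87. The 5 genes thus lay in the lower part of the range of the reference, which began at 0.13.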

How the data were processed

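Single ECs were captured on a 10x droplet platform (version 2 of the kit in the labels, version 3 in the study's methods), and the submitters' processing notes name Cell Ranger 3.0.0, Seurat 3.1.1 and mm10. The authors kept cells with at least 500 genes and at most 10% mitochondrial UMIs and genes found in 3 or more cells, and removed non-endothelial clusters. The deposited tables hold natural log values, which the authors took of 1 added to UMIs per 10000. These were turned back into UMI counts through the smallest step of each cell, and 100% came within 0.01 of a whole number.

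UMIs were summed per library or state and scaled to CPM, with 95% intervals for counting error only (Python 3.11.15, NumPy 2.4.6, SciPy 1.17.1, pandas 2.3.3). Clustering was run in Seurat 5.3.0 under R 4.3.3 (2500 variable genes, of which 1790 were used, integration anchors, 30 principal components, Louvain resolution 0.5). A state was named when at least 3 markers of a class were raised 2-fold with 5 CPM added and no other class had more markers among its 10 leading genes; these thresholds came from earlier work on these data and were set with clusters in view. Doublets were not called. Rebuilt states need not be those of the study. The scripts were tested on simulated counts. Gene positions are from GENCODE vM21 and promoter windows from RefSeq. Figures were drawn with matplotlib 3.10.9.

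The 5 genes and the lists were chosen with earlier results of these data known. Genes named from each list were all other PARP and deltex genes and, elsewhere, the 3 with the largest absolute log2 ratio among those with at least 5 CPM. For likeness the 3 genes of highest correlation with each member were named. Qprt and Mx2, which are on the lists, and the leucocyte markers Cd3e and Nkg7 were not analysed here. The value of 1 interferon signalling gene is not reported here. Alternatives were per-cell means, median-of-ratios scaling, equal proportions of states, filters on cells, thinning, a minimum of 20 CPM and other clusterings.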

Additional observations from a re-analysis of the deposited data

How the results depend on the processing

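All 5 log2 ratios stayed above 0 under the 6 alternatives, between 0.50 and 0.84 for Parp9, 0.47 and 0.65 for Parp10, 0.53 and 0.64 for Parp12, 0.43 and 0.56 for Parp14, and 0.47 and 0.60 for Dtx3l. Parp9 left its counting interval in thinned cells, at 0.50. Parp14 left it with the mean of single cells, at 0.43, with equal proportions of the states, at 0.43, and with median-of-ratios scaling, at 0.56. The number of genes up at least 2-fold, 173, was 103 at 20 CPM and 676 over every gene with a UMI in both libraries. At 20 CPM, 1 of 6 other PARP genes was higher, since Parp11, Parp8 and Parp3 drop out. At 10000 UMIs per cell the differences in shares were 12.1 percentage points for Parp9, 5.44 for Parp10, 9.98 for Parp12 and 9.77 for Dtx3l.

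The cGAMP level was higher in 20 of 20 pairs at resolution 0.3, 51 of 55 at 0.8 and 27 of 30 without integration. It was higher in 40 of 40 when the interferon lists were also left out of clustering, which was added after the data had been seen. The share of all genes that were higher was not taken for these other clusterings. The 4 exceptions at 0.8 were all in the Rsad2/Cxcl10 group. Those without integration were Parp14 at -0.036 and Dtx3l at -0.10 in the Ramp3 state and Parp12 at -0.16 in the Gja4 state. The log2 spread between the highest and lowest state, averaged over the libraries, rose at 0.8 to 2.32 for Parp9, 2.56 for Parp10, 2.49 for Parp12, 2.69 for Parp14 and 2.47 for Dtx3l. That of Parp14 was 0.86 at 0.3 and 0.93 without integration. These spreads were also added after the data had been seen. When the interferon lists were left out, Parp14 remained highest in the Gal/Chga state of the PBS library, at 99.1 CPM, whereas Parp10 was highest in the Gja4/Nts state, at 16.1 CPM.

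No paired analysis was possible because each condition has 1 library. With 1 mouse per condition no spread between mice is known, and fewer expressing cells and less RNA per cell can be told apart only as far as the depth of single cells allows.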
